A study of Drosophila melanogaster with 2 samples.

Results

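A group of 8 genes of the glial lineage and of the blood-brain barrier was examined for peaks of the ETS transcription factor Ets98B in pupae of Drosophila melanogaster. The genes were gcm, gcm2, repo, moody, loco, Gli, Nrx-IV and nrv2, which are 8 of 13968 protein-coding genes on the main chromosome arms. A peak was assigned to a gene where its summit, the position of highest signal, lay in the gene body or within 1 kb of it. Of the 7157 peaks of the authors' conservative set, 8 met this rule, and they lay at 4 of the 8 genes (moody, loco, Gli and gcm2). A peak was found by the same rule at 32.1% of all protein-coding genes, and at 41.9% of those in the length range of the 8 genes, 2248 to 19420 bp. The count of 4 of 8 is near this second share, so the number of genes with a peak did not set the group apart.

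The data were chromatin immunoprecipitation followed by sequencing (ChIP-seq) from whole pupae of the strain Ets98B-GFP, aged 2 days, which carry an insertion that expresses Ets98B fused to eGFP. The samples were 2 biological replicates of this 1 group, sex was not collected, and the chromatin was sheared by sonication to 200 to 800 bp and recovered with an anti-GFP antibody (a separate antibody label names Ets98B). The cells in which the fusion protein is made are not stated in the labels, and peaks of whole animals do not show in which cells a site was bound. No control sample was analysed here and there was no other group, so no test between conditions was possible and every value below is a description.

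Glia of the fly are set apart from neurons early in development, when the transcription factor Gcm switches on repo and other glial genes. The brain is later enclosed by perineurial and subperineurial glia, and the subperineurial cells seal the barrier to the hemolymph with septate junctions. The receptor Moody and the G protein regulator Loco act in these cells to keep the junctions intact. ETS proteins bind DNA around the core GGAA, and mammalian PDEF, the relative of Ets98B, also binds around GGAT.

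The signal of a peak is the value that the authors' peak caller gave it, on a scale that the sources used here do not give. The median signal of the conservative set was 131. The 8 peaks at glial and barrier genes ranged from 88 to 1135 with a median of 188, and 5 of them were above the median of all peaks. The strongest peaks belonged to the Moody signalling genes moody and loco, and the next to the junction gene Gli. The gcm2 peak (109), the second moody peak (104) and the weakest Gli peak (88) were below the median of all peaks. Replicates were compared through the authors' ranked lists, which hold 35793 peaks for replicate 1 and 47537 for replicate 2, most of them weak. All 8 were matched by a summit no more than 100 bp away in both ranked lists, as were 89.8% of all conservative peaks. In the shorter thresholded lists of 5851 and 7963 peaks, 5 of the 8 were found in both replicates, against 59.7% of all conservative peaks. The other 3 (gcm2, the second moody peak and the weakest Gli peak) were in the thresholded list of replicate 2 and not in that of replicate 1, as were 19.7% of all conservative peaks. Read depth is unknown because peak lists hold no read counts.

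**Figure D1:**
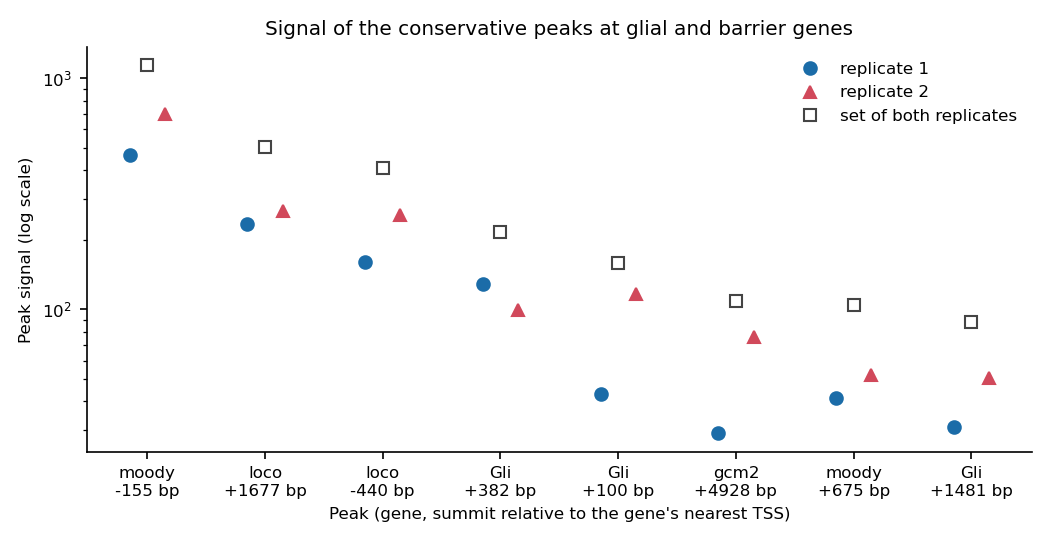
Signal of the 8 conservative peaks on a log scale, in replicate 1 (circles), replicate 2 (triangles) and the authors' set of both replicates (squares), each labelled by its gene and the place of the summit relative to the nearest transcription start site (TSS) of that gene. The moody promoter peak is the highest in both replicates (463 and 699), and the Gli peak at +382 bp is the only one of the 8 that is higher in replicate 1.

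Among the fate genes, gcm had no conservative peak. Its product is a transcription factor that directs precursor cells to the glial fate and also acts in hemocytes. gcm (FBgn0014179) lies at chr2L:9579498-9581745 on the minus strand (dm6, as are all coordinates here) and is the shortest of the genes at 2248 bp. In replicate 1 the ranked list placed a summit with a signal of 20.2 at 151 bp upstream of the TSS and another of 10.4 in coding exon 2. Replicate 2 had no ranked summit in or within 1 kb of gcm, so that neither of these was found in both replicates. The nearest conservative peak lay 2937 bp beyond the 3′ end, with a signal of 80.3 and 208 bp from a TSS of Mtpalpha, a mitochondrial fatty acid oxidation gene.

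The paralog gcm2 had 1 peak, at the promoter of its neighbour. gcm2 (FBgn0019809, chr2L:9608562-9612706, plus strand) encodes a second Gcm-type factor that acts partly redundantly with gcm. The peak (chr2L:9613300-9613679) had its summit 784 bp beyond the 3′ end of gcm2 and 4928 bp from its TSS. The same summit was 76 bp downstream of a TSS of Trx2, which encodes a thioredoxin, so that the assignment to gcm2 rests on the 1 kb margin. Signal was 109 in the conservative set beside 29.1 for replicate 1 and 75.8 for replicate 2 (52.5 ± 33, SD, n = 2). Replicate 2 was 2.61 times as high as replicate 1, a ratio that 2.94% of the matched conservative peaks exceeded. The reproducibility score of the peak was 831, just inside the lowest score of 830 in the set. A second peak in Trx2 with a signal of 85.3 fell just outside the margin, 1412 bp from gcm2.

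The 26816 bp between gcm and gcm2 held no conservative summit. Replicate 1 had a peak there with a signal of 60.9 and the maximal score of 1000, located 16866 bp upstream of the gcm TSS and 9951 bp upstream of the gcm2 TSS. A peak with a signal of 106 lay beside it in the authors' other, longer series-level set. Replicate 2 had no ranked summit anywhere in the interval, so this site was seen in 1 replicate only.

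repo, the homeodomain gene whose protein marks nearly all lateral glia, had no conservative peak. The gene (FBgn0011701, chr3R:18236192-18239602, plus strand) had no ranked summit in replicate 1. Replicate 2 had 4 weak ones, of which the highest, with a signal of 26.8, was 122 bp upstream of the TSS. The other 3 had signals of 10.7, 7.11 and 4.8. A summit upstream of the TSS was therefore listed at gcm in replicate 1 only and at repo in replicate 2 only. The nearest conservative peaks to repo were at 4230 bp downstream, in 14-3-3epsilon (signal 168), and at 7270 bp upstream (86.8).

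**Figure D2:**
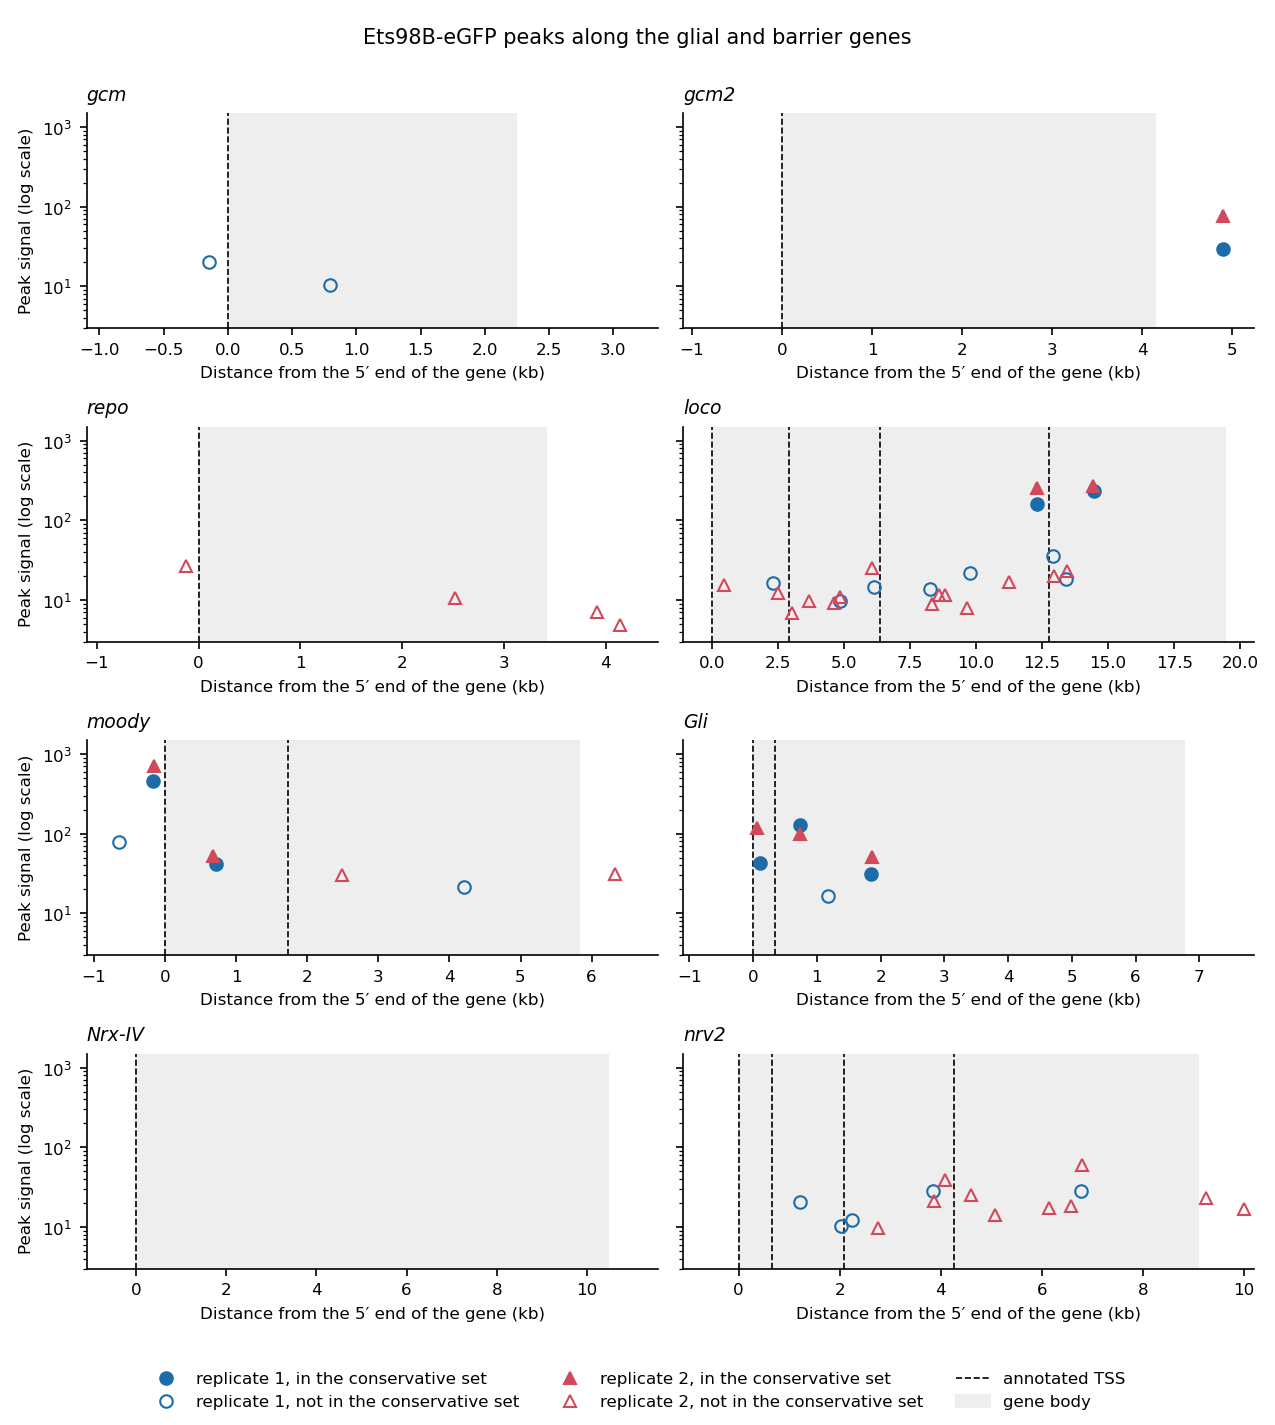
Peak summits along the 8 genes, drawn 5′ to 3′ with the distance from the 5′ end of the gene in kb and the signal on a log scale, for replicate 1 (circles) and replicate 2 (triangles). Filled symbols match a conservative peak and open symbols do not, dashed lines mark annotated TSSs and grey marks the gene body; moody and Gli carry their filled symbols at the 5′ end, loco around its innermost TSS, and the Nrx-IV panel holds none.

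Of the barrier signalling genes, moody had the strongest peak of the group. moody encodes a G protein-coupled receptor of the subperineurial glia that is needed to keep the barrier sealed. The gene (FBgn0025631, chrX:2044292-2050120, minus strand) has 6 annotated transcripts and 2 TSSs. Peak 1 (chrX:2050127-2050475) had its summit 155 bp upstream of the first TSS, from which 2 transcripts start, and also lay in an intron of CG4313. Its signal was 1135 in the conservative set (rank 70, with 0.964% of peaks higher) beside 463 for replicate 1 and 699 for replicate 2 (581 ± 167, SD, n = 2). The summits of the replicates lay 6 bp and 0 bp from that of the set. Both replicates thus placed a strong summit at the same position upstream of the first TSS, with replicate 2 the higher. Of the 4487 protein-coding genes with a peak, 2.23% had a stronger strongest peak than moody.

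The bases up to 50 bp to either side of this summit (chrX:2050225-2050325, minus strand as the gene is read, from the Release 6 reference assembly) are shown because they hold an ETS core in 3 places. Capitals mark GGAA or GGAT on either strand, which on the opposite strand read TTCC or ATCC, here and below.
moody peak 1: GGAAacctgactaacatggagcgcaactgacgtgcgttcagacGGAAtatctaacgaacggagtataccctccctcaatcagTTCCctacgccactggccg

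A weaker moody peak lay inside the gene. Peak 2 (chrX:2049255-2049634) had its summit 675 bp downstream of the first TSS, in 5′ UTR exon 1, and 830 bp from the summit of peak 1. Like that of peak 1, it also met the assignment rule for CG4313. Signal was 104 in the conservative set beside 41.3 for replicate 1 and 52.1 for replicate 2 (46.7 ± 7.64, SD, n = 2). The replicates were closer to one another here than at peak 1, and replicate 2 was again the higher. The second TSS, 1725 bp downstream of the first and used by 4 transcripts, had no summit within 500 bp in any list. Replicate 1 alone had a further thresholded peak 639 bp upstream of the first TSS, with a signal of 79, which matched no summit of replicate 2. Outside the gene the next conservative peak was 1950 bp downstream, 31 bp from a TSS of Actn, the alpha-actinin gene (signal 102), and in the body of CG4313.

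loco had 2 strong peaks around its innermost TSS, of which only the weaker lay within 500 bp of it. Loco is a regulator of G protein signalling that shortens the active state of G alpha proteins, acts with Moody in barrier glia, and is known as a target of Gcm. The gene (FBgn0020278, chr3R:22619968-22639387, minus strand) is the longest of the 8 at 19420 bp and has 4 TSSs. Peak 1 (chr3R:22624817-22625070) lay in an intron with its summit 1677 bp downstream of the TSS at chr3R position 22626634. Its signal was 504 in the conservative set (5.3% of peaks higher) beside 235 for replicate 1 and 265 for replicate 2 (250 ± 21.1, SD, n = 2). Peak 2 (chr3R:22626942-22627202) had its summit 440 bp upstream of the same TSS. Its signal was 410 in the set (7.87% of peaks higher) beside 160 for replicate 1 and 256 for replicate 2 (208 ± 68.2, SD, n = 2). The pair flanked 1 TSS at a distance of 2117 bp between summits, and peak 1 was the higher in both replicates.

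That TSS is used by 2 of the 5 loco transcripts and lies 12753 bp downstream of the first, within introns of the longer transcripts. At the other 3 TSSs there was no conservative peak. The ranked lists held 9 summits of replicate 1 and 16 of replicate 2 at loco. Weak ones were listed near the other TSSs, the highest within 500 bp of the TSS at chr3R position 22633018, with 14.4 for replicate 1 and 25.5 for replicate 2. Both strong loco peaks were narrower (254 and 261 bp) than the fixed width of 380 bp that 4221 of the conservative peaks have. Such narrower peaks are common, at 40% of all conservative peaks. Windows reaching 50 bp to either side of the summits are shown because both lacked GGAA and GGAT on either strand and had ranks of 380 and 564 among all 7157 peaks.
loco peak 1, chr3R:22624907-22625007, minus strand: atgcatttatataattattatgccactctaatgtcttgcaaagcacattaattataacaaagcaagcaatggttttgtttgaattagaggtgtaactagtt
loco peak 2, chr3R:22627024-22627124, minus strand: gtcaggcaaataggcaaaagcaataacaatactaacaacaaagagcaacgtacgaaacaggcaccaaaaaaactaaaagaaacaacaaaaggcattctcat

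Of the 3 septate junction genes in the group (Gli, Nrx-IV and nrv2), Gli alone had conservative peaks. Its product Gliotactin is a transmembrane protein of the neuroligin type that sits at tricellular junctions, where 3 cells meet, and is needed for the barrier around nerves. The gene (FBgn0001987, chr2L:15756002-15762758, minus strand) has 2 TSSs that are 350 bp apart. Its 3 peaks lay within the first part of the gene, with 632 bp and 1099 bp between neighbouring summits. Of genes with a peak, 18.5% had 3 or more.

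Gli peak 1 (chr2L:15761960-15762103) was the strongest of the 3 and, at 144 bp, the narrowest of all 8. Of all conservative peaks, 8.19% were at most this wide. Its summit was in an intron, 382 bp downstream of the inner TSS. Signal was 216 in the conservative set (23.5% of peaks higher) beside 129 for replicate 1 and 98.9 for replicate 2 (114 ± 21.5, SD, n = 2). Peak 2 (chr2L:15762468-15762847) had its summit 100 bp downstream of the outer TSS, in the 5′ UTR of the first exon. Signal was 159 in the set beside 43 for replicate 1 and 117 for replicate 2 (80 ± 52.3, SD, n = 2). The order of peaks 1 and 2 was reversed between the replicates, with peak 1 the higher in replicate 1 and peak 2 in replicate 2. At peak 2 the ratio of replicate 2 to replicate 1 was 2.72, which 2.26% of matched peaks exceeded, and the replicate 2 summit lay 41 bp from that of the set.

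Gli peak 3 (chr2L:15760737-15761116) was the weakest of the 8. Its summit lay in an intron 1481 bp downstream of the inner TSS, and 80% of the conservative peaks had a higher signal. Signal was 88 in the set beside 30.9 for replicate 1 and 50.6 for replicate 2 (40.7 ± 14, SD, n = 2), and the peak was absent from the authors' other series-level set. Windows of peaks 1 and 3 are shown because both lie in introns and differ in their ETS cores: the stronger held 1 GGAT, and the weaker held GGAA in 2 places and GGAT in 1.
Gli peak 1, chr2L:15761976-15762076, minus strand: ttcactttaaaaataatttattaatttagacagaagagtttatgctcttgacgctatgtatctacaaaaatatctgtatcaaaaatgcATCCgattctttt
Gli peak 3, chr2L:15760877-15760977, minus strand: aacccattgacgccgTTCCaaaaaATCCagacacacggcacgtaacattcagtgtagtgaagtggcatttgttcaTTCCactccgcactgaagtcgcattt

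The Gli peaks were far from any others. The gap to the next conservative summit was 149 kb on the upstream side, which 1.17% of the 7151 gaps between neighbouring summits exceeded, and 262 kb on the downstream side, exceeded by 0.252%. The median gap was 5536 bp. Between those flanking peaks lay 41 other protein-coding genes. Outside Gli and its margin, the other series-level set had no peak in this stretch, the thresholded lists held 2 peaks of replicate 1 and 1 of replicate 2, and the ranked lists held 32 and 21 summits.

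No peak was found at Nrx-IV, which encodes the Neurexin IV protein of pleated septate junctions, related to vertebrate Caspr. The gene (FBgn0013997, chr3L:12146519-12156990, plus strand) held no summit in its body or within 1 kb in any list used, the ranked lists of both replicates included. Among genes in the length range of the 8 genes, 13.1% had no ranked summit of either replicate. The nearest conservative peaks were 6902 bp downstream (signal 128, near CG9760) and 7027 bp upstream (signal 103, near RhoGAP68F).

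nrv2, which encodes a beta subunit of the Na/K-ATPase that septate junctions also require, missed the conservative set by its score. The gene (FBgn0015777, chr2L:6789770-6798862, minus strand) had a peak in the other series-level set (chr2L:6791879-6792258) in an intron, 2530 bp downstream of the nearest TSS. In the ranked list behind the conservative set this peak had a signal of 84.5 and a score of 802, just under the lowest score of 830. Signal was 27.9 for replicate 1 and 59.4 for replicate 2, where it was past the threshold. In all, the ranked lists held 5 summits of replicate 1 and 10 of replicate 2 at nrv2. Near the TSS at chr2L position 6794599, from which 3 transcripts start, a ranked summit 183 bp upstream had a signal of 38.5 in replicate 2, and replicate 1 had no summit within 100 bp of it. Another ranked summit, 427 bp upstream of the same TSS in replicate 1, was found in both, with a signal of 28.4 for replicate 1 and 21.4 for replicate 2. The conservative peak nearest to nrv2 was stronger, with a signal of 505, and lay 2133 bp downstream, 776 bp from a TSS of nrv1, its paralog. On the upstream side the next was 124 kb away (signal 326, near Hrb27C).

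**Figure D3:**
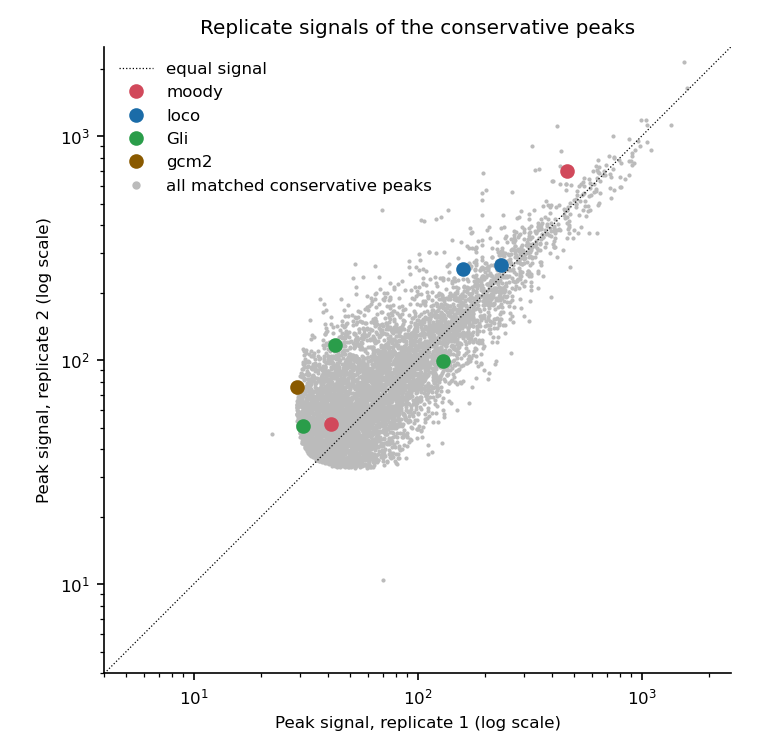
Signal of each matched conservative peak in replicate 1 (x axis) and replicate 2 (y axis), both on log scales, with the 8 peaks at glial and barrier genes coloured by gene and the dotted line marking equal signal. 7 of the 8 lie above the line, as do most of all matched peaks (median ratio 1.1). Of the 8, gcm2 and the Gli peak at 43 and 117 are farthest above it.

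Across the 8 peaks, signal was higher in replicate 2 at 7 and in replicate 1 at 1. The ratio of replicate 2 to replicate 1 ran from 0.765 at Gli peak 1 to 2.72 at Gli peak 2. Over the 6429 conservative peaks matched in both ranked lists the median ratio was 1.1 with quartiles of 0.88 and 1.44. Most matched peaks were thus also higher in replicate 2, so this direction does not set the 8 apart. The 3 strongest of the 8 had ratios of 1.51, 1.13 and 1.6.

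By position, 5 of the 8 summits (62.5%) lay no more than 500 bp from a TSS of a protein-coding gene, against 39.7% of all conservative peaks. Beyond the TSS windows, 2 lay in introns, where 43% of all conservative peaks lay, and 1 in a 5′ UTR, where 0.838% lay. A summit within 500 bp of the gene's own TSS was present at 3 of the 8 genes (moody, loco and Gli), against 21.4% of all protein-coding genes. That share was not matched for gene length or number of TSSs, so the 2 values are not on a like basis. The fifth peak near a TSS was the gcm2 peak, which was at the TSS of Trx2. Each gene with a peak at its own TSS had several start sites. Summits within 500 bp were at the outer and not the inner TSS of moody, at the innermost of 4 at loco, and at both at Gli.

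**Figure D4:**
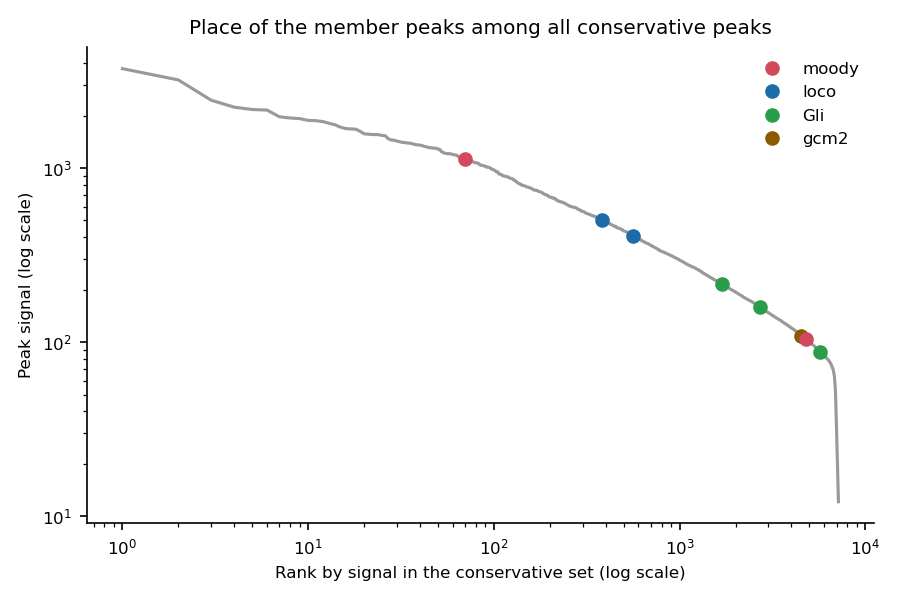
Signal of all 7157 conservative peaks against their rank, both on log scales, with the 8 peaks at glial and barrier genes coloured by gene. The moody promoter peak is at rank 70, the loco peaks at 380 and 564, the Gli peaks at 1682, 2701 and 5730, and the gcm2 peak and second moody peak at 4516 and 4802.

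The sequence at the summits varied among the 8 peaks. Base composition in windows reaching 50 bp to either side of a summit ran from 25.7% G and C at Gli peak 1 to 54.5% at Gli peak 2, and both loco windows were low, at 28.7% and 35.6%. The median was 46%, against 35.6% for all conservative peaks. GGAA, searched on both strands, was found in 4 of the 8 windows, against 49.1% of all peaks, and GGAT in 4, against 30.9%. The GGAT count changed with the window: with 25 bp to either side it was 1 of 8, against 16.9% of all peaks, and with 100 bp it was 4, against 52.5%. Neither core was found in 3 windows (both loco peaks and Gli peak 2), against 35.1% of all peaks and 35% of the 715 strongest. GGAA in 3 or more places was found at both moody peaks, against 3.31% of all peaks, and moody peak 2 held a GGAT as well.

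A further 6 words were searched on both strands in the same windows. GCGGGT, the core of the site bound by Gcm, was in none of the 8 windows and in 1.62% of all. TAATTA, a homeodomain word that is its own reverse complement, was in 2 (loco peak 1, in 2 places, and gcm2), against 7.29%. The E-box CANNTG, also read alike on both strands, was in 4, against 35%. GAGAG, a word of the factor Trl, was in 2, against 16.6%. CGATA, a word of the insulator protein BEAF-32, and TATAAAA, a core promoter word, were in none, against 12.8% and 7.84%. These counts changed with the window. With 25 bp to either side, the E-box was in 1, against 18.4%, TAATTA in 1, against 3.73%, and GAGAG in none, against 9.14%. With 100 bp, the E-box was in 6, against 62.3%, and GAGAG in 4, against 31.6%. CGATA and TATAAAA were then in 1 each, against 23.4% and 13.1%. GGAA and GGAT were each counted on their own, with no check for overlap between them. A word in a window does not show that a protein bound there.

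The other genes of the same processes were taken from 5 lists of 95 genes in all, of which 87 were not among the 8. A conservative peak in the body or within 1 kb was found at 48 of the 87 (55.2%). A peak within 500 bp of a TSS of the gene was found at 35 of the 87 (40.2%), against 21.4% of all protein-coding genes. The list genes are long, with a median of 8866 bp over the lists against 2164 bp for all protein-coding genes. No share at a TSS was made for genes of like length, here or for the single lists below. Of protein-coding genes of 5 kb or longer, 56.5% had a peak, beside 39 of the 62 list genes of that length (62.9%) and 3 of the 5 such members.

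**Figure D5:**
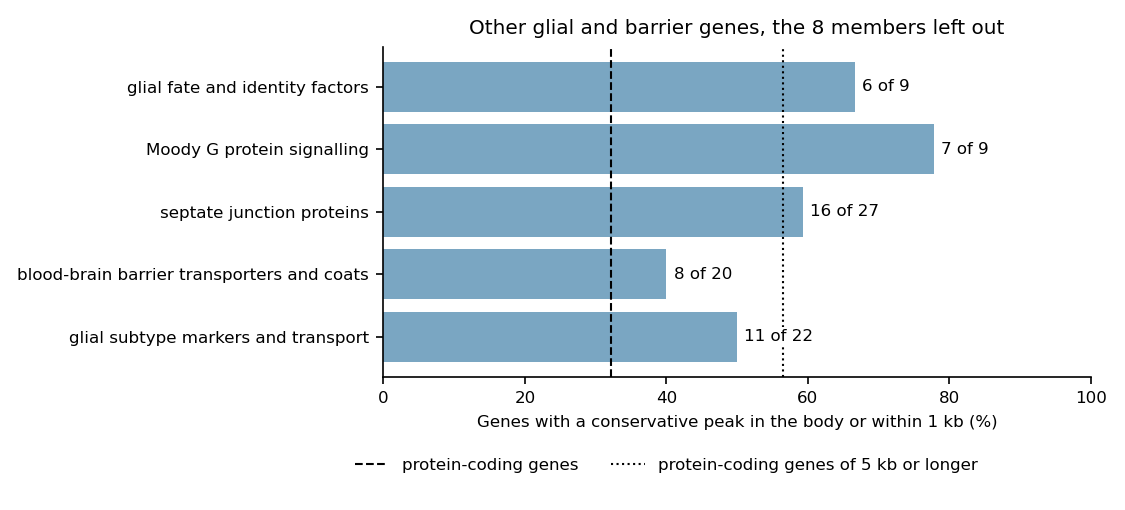
Share of the genes in each of 5 lists that had a conservative peak in the body or within 1 kb, with the 8 described genes left out and the counts beside the bars. The dashed line is the share of all protein-coding genes (32.1%) and the dotted line that of genes of 5 kb or longer (56.5%); 3 lists reach past the dotted line, and the transporter and coat genes (8 of 20) and the glial subtype genes (11 of 22) lie between the lines.

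Of 9 other genes of glial fate and identity, 6 had a peak, and 3 had one at a TSS. Signals in this list and in those below are of each gene's strongest peak, which need not be the peak at a TSS. The highest was at pnt, which encodes the ETS factor Pointed and had 10 peaks. Its strongest was in an intron, with a signal of 522 in the set beside 275 for replicate 1 and 242 for replicate 2. N, the Notch receptor gene, had a signal of 382 in the set beside 197 for replicate 1 and 177 for replicate 2, at an intronic summit whose nearest TSS was that of CG18508. kn, which encodes the transcription factor Collier, had signals of 198, 92.7 and 105 in the same order, at a summit 13941 bp from its own TSS and nearest to that of BEAF-32. E(spl)m8-HLH, a Notch target, had signals of 125, 64.4 and 71 in the same order at a summit whose nearest TSS was that of gro. hkb, tll and Ptx1 had no peak.

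Components of G protein signalling around Moody had peaks at 7 of 9 genes, and 6 had one at a TSS. The genes of this list, members included, had a median length of 16983 bp, and these counts were not matched for length. Pka-C1, the catalytic subunit of protein kinase A, had a signal of 247 in the set beside 134 for replicate 1 and 127 for replicate 2. That summit was in an intron, 6146 bp from the nearest Pka-C1 TSS. Pka-R2, a regulatory subunit of the same kinase, had signals of 246, 116 and 129 in the same order. Rho1, a small GTPase of the cytoskeleton, had signals of 208, 85.2 and 143 in the same order. That summit was in an intron, 973 bp from the nearest Rho1 TSS. Gbeta13F, a G protein beta subunit, had signals of 182, 79.6 and 88 in the same order at a summit 18 bp from its TSS. All 4 had a lower signal in the set than moody and loco.

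Septate junction genes other than the members had a peak at 16 of 27, and at a TSS in 11. Fas3, an adhesion protein gene, had 10 peaks, the strongest at 516 in the set beside 248 for replicate 1 and 266 for replicate 2, in an intron and nearest to a TSS of Acp36DE. dlg1, a scaffold gene, had signals of 397, 166 and 230 in the same order. scrib, another scaffold gene of cell polarity, had signals of 350, 210 and 144 in the same order. That summit was in an intron, 5980 bp from the nearest scrib TSS. Nrg, which encodes Neuroglian, had signals of 323, 170 and 149 in the same order, also in an intron, with PIP82 as the gene of the nearest TSS. The junction genes Cont, sinu, kune and crok had no conservative peak. Their lengths were 5713, 2129, 1060 and 1111 bp, so all are shorter than Nrx-IV (10472 bp).

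Transporters and coat components of the barrier had a peak at 8 of 20 genes, and at a TSS in 7. LpR2, a lipoprotein receptor gene, had a signal of 575 in the set beside 343 for replicate 1 and 249 for replicate 2. That summit was in an intron, 2286 bp from the nearest LpR2 TSS. Oatp30B, an organic anion transporter gene, had signals of 531, 233 and 305 in the same order at a summit 114 bp upstream of its TSS. mnd, an amino acid transporter gene, had signals of 460, 202 and 258 in the same order. trol, which encodes perlecan, had signals of 362, 173 and 176 in the same order, in an intron 11396 bp from its nearest TSS. The drug efflux gene Mdr65 had no peak, nor did Mdr49 and Mdr50.

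Markers of glial subtypes had a peak at 11 of 22 genes, and at a TSS in 8. Gs2, glutamine synthetase, had a signal of 382 in the set beside 109 for replicate 1 and 250 for replicate 2. ced-6, an engulfment adaptor gene, had signals of 289, 127 and 141 in the same order, in an intron 1427 bp from its nearest TSS. wrapper, a gene of midline glia, had signals of 219, 38.3 and 177 in the same order at a summit whose nearest TSS was that of CG13506. Inx2, a gap junction gene, had signals of 200, 62.8 and 137 in the same order. The glutamate transporter genes Eaat1 and Eaat2 and the astrocyte marker alrm had none.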

How the data were processed

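ChIP-seq peak lists of 2 biological replicates, numbered by the labels and treated as 1 group, were used on the dm6 build, per the labels. No aligner or peak caller is named in the labels or file lists (not given in the sources used here), so their effect on peak number and height could not be checked. The deposited signal column holds the authors' value for each peak, and the deposited score column holds a score for the irreproducible discovery rate (IDR), scaled up to 1000, with a lowest score of 830 in the thresholded lists. Per the authors' file lists, series-level lists were made from the alignments of both replicates and a further file, and each replicate's lists from its own alignment and that file. Another 8 value columns of the ranked series-level list map to no sample and were not used. Signal values of the same peak in different lists come from separate runs of the peak caller and are given side by side without rescaling.

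Genes were those of Ensembl release 115. The coordinates were checked: all 7157 peaks lay within the arms of the Release 6 FASTA, 99.5% of coding transcripts began with ATG in it, and all 8 genes had the same span in RefSeq. A peak was matched to a replicate by the nearest ranked summit within 100 bp. A TSS window was 500 bp to each side of a TSS of any transcript. Words were searched on both strands up to 50 bp to either side of the summit. Counting was done in Python 3.11.15 with numpy 2.4.6, and figures were drawn with matplotlib 3.10.9. The 1 kb rule that assigns a summit to a gene was tried on made-up positions with known answers. The reverse complement was tried on GGAA, and the word, TSS and replicate-match counts were not tested.

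With 1 group, 2 samples and no control, no test was run, and intervals for depth could not be made. The 8 genes and the 5 gene lists were chosen with earlier results of these data known. The text names all 8 genes with every peak, and in each list the 4 other genes with the highest signal of their strongest peak. Genes listed as having no peak, and genes that border a described peak, are named beyond that rule and were chosen after their values were seen. All 95 list genes were matched, 4 by an older symbol. Alternatives changed the peak list, the replicates, the threshold, the margin around the gene, the TSS window, the matching of summits and the sequence window.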

Additional observations from a re-analysis of the deposited data

How the results depend on the processing

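The counts rest most on the margin around the gene. With a margin of 5 kb in place of 1 kb, 7 of the 8 genes had a peak (Nrx-IV did not) and the number of peaks rose from 8 to 17. The share of all protein-coding genes with a peak rose to 52.8%. This share and those below are of genes of all lengths, not of the length range of the 8 genes. With no margin, 3 genes (moody, loco and Gli) and 6 peaks were left, against 15.7% of all protein-coding genes. The gcm2 peak and moody peak 1, the strongest of the group, then fell outside the gene bodies. Limited to the conservative peaks above the median signal, 5 of the 8 peaks were left, at moody, loco and Gli. With that limit 20.4% of all protein-coding genes had a peak. In the thresholded lists of both replicates, 5 peaks were matched. Using the peaks of a single replicate, the number of genes with a peak ranged from 3 to 5, of peaks from 6 to 9, and of list genes, members included, from 44 to 61 around 52, and it was 3 for genes with a peak at their own TSS in both. gcm2 had no peak in the thresholded list of replicate 1 and nrv2 gained one in that of replicate 2. The share of all protein-coding genes with a peak was 28.1% with the peaks of replicate 1 and 34.3% with those of replicate 2. In the other series-level set the share was 36.2%, beside 5 of the 8 genes. The other 27 values for these counts were within 1.5 times the counts reported. They include those with no margin, the other series-level set, summits within 50 or 250 bp and a TSS window of 250 bp (2 genes) or 1000 bp. Of 16 word counts in windows reaching 25 or 100 bp to either side of the summit, 7 moved by more than that, GGAT among them (4 to 1 in the narrower window). No paired analysis was possible because there was 1 group. Depth is unknown, so a gene without a peak is not shown to be unbound.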
